A study of Mus musculus with 24 samples.

Results

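The flavin-containing monooxygenase (FMO) genes *Fmo1*, *Fmo2*, *Fmo4* and *Fmo5* were examined in liver RNA-Seq of lipodystrophic and control mice. The 4 genes were taken by name from the 23972 genes of the count table, and all 4 had counts in all 24 libraries. They were selected with levels in these same libraries known, so their differences between groups are given as a description, with no p-value. Whether a gene passed the thresholds used for all genes is stated as part of that description and supports nothing. The livers were those of female mice. Among controls, 7 had received vehicle and 3 FGF21, and among Lmna ADKO mice these numbers were 6 and 8. Controls were Lmna fl/fl without Adipoq-Cre and Lmna ADKO mice were Lmna fl/fl with Adipoq-Cre, which deletes exons 10 and 11 of *Lmna* in adipocytes and not in hepatocytes. Mice of all groups carried the floxed alleles, were 12 to 14 weeks old at the start, lived at 22°C, and ate a 60% high-fat diet. After 4 weeks of diet they received an adeno-associated virus (AAV8) expressing FGF21 or vehicle by retro-orbital injection, and livers were taken 8 weeks later. On the labels the treatment is named a rescue, taken here to be the FGF21 virus. *Fgf21* itself ran from 1.90 to 10.8 CPM in vehicle-treated controls and from 3.14 to 7.40 CPM in FGF21-treated controls, and it averaged 7.99 ± 2.48 (SD, n = 6) CPM in vehicle-treated and 5.36 ± 2.41 (SD, n = 8) CPM in FGF21-treated Lmna ADKO mice, so it does not set the treated groups apart.

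FMO enzymes sit in the membrane of the endoplasmic reticulum and insert 1 atom of oxygen into their substrates. They bind FAD, which NADPH reduces, and hold the oxygen as a flavin hydroperoxide until a soft nucleophile such as the nitrogen of an amine or the sulfur of a thioether reaches it. In liver they act beside the cytochrome P450 enzymes on drugs and food amines, but they take their electrons from NADPH directly and not through P450 reductase. FMO1 also makes taurine from hypotaurine, FMO2 is known as the main form of lung, FMO4 is a less studied form of low abundance, and FMO5 accepts few classical FMO substrates and oxidises ketones to esters in a Baeyer-Villiger reaction.

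On GRCm38, *Fmo1* (ENSMUSG00000040181) lies on the minus strand of chromosome 1 from 162829561 to 162866610. *Fmo2* (ENSMUSG00000040170) lies next to it from 162874317 to 162898726, and *Fmo4* (ENSMUSG00000026692) from 162793188 to 162813972, both on the same strand. *Fmo5* (ENSMUSG00000028088) is apart from them, on the plus strand of chromosome 3 from 97628804 to 97655282. The longest coding sequences have 532 codons for *Fmo1*, 535 for *Fmo2*, 560 for *Fmo4* and 533 for *Fmo5*, each in a transcript of 9 exons. Aligned pair by pair, these coding sequences were identical at 59.33% (*Fmo1* and *Fmo5*) to 62.56% (*Fmo2* and *Fmo4*) of the aligned bases. A feature that the 4 share is the glycine motif GxGxxG of the FAD-binding fold, which begins at codon 9 of *Fmo1*, *Fmo2* and *Fmo4* and at codon 10 of *Fmo5*. The 36 coding bases around it are shown to let the reader see how far these genes have diverged there. The motif was located by its pattern alone, which by itself does not mark a gene as a flavoprotein. All stretches lie in exon 2, are read in the direction of transcription, and have the 3 glycine codons of the motif in capitals.
Fmo1: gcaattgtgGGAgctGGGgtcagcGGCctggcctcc
Fmo2: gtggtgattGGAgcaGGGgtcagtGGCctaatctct
Fmo4: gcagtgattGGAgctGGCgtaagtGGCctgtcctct
Fmo5: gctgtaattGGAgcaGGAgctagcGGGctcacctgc
These are chr1:162859506-162859541 on the minus strand for *Fmo1*, chr1:162898255-162898290 on the minus strand for *Fmo2*, chr1:162809871-162809906 on the minus strand for *Fmo4*, and chr3:97629079-97629114 on the plus strand for *Fmo5*. The first glycine codon is GGA in each of the 4 genes, whereas the later ones use different glycine codons.

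The libraries held 19863304 to 21510054 counts each. Levels are given as CPM, the counts of a gene relative to the library's total after scaling by edgeR's TMM method. In 3 libraries, control vehicle replicate 3, control FGF21 replicate 3 and Lmna ADKO FGF21 replicate 7, log2 CPM fell with gene length, with slopes of -0.15, -0.29 and -0.33 per doubling of length, against -0.11 to 0.13 in the others, so values are also given without them. *Lmna* averaged 18.6 ± 2.47 (SD, n = 7) CPM in vehicle-treated controls and 26.7 ± 2.57 (SD, n = 6) CPM in vehicle-treated Lmna ADKO livers, and since Cre is driven in adipocytes, *Lmna* in liver does not check the deletion. A gene was called at an adjusted p under 0.05 (edgeR quasi-likelihood test with Benjamini-Hochberg adjustment over all genes) and a fold change above 1.5. In vehicle-treated mice, 5.12% of the 23972 genes were called higher in Lmna ADKO livers and 3.36% lower. With FGF21, 1.61% were called higher and 1.26% lower. FGF21 against vehicle called 0.0542% of genes in controls. In Lmna ADKO mice it called 0%, where 1608 genes had an unadjusted edgeR p under 0.05 and DESeq2 called 15. For the genotype by treatment interaction 0.00417% were called.

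*Fmo5* was the gene of the 4 with the higher level in Lmna ADKO liver. In the 7 vehicle-treated controls it ran from 260 CPM through a median of 318 CPM to 396 CPM. In the 6 vehicle-treated Lmna ADKO mice it ran from 653 CPM through a median of 757 CPM to 1035.7 CPM. The groups did not overlap, and the lowest Lmna ADKO library stood well above the highest control. The share of all genes whose groups separate in this way was not computed, so nothing is read from the separation. The means were 323 ± 49.2 (SD, n = 7) and 806 ± 161 (SD, n = 6) CPM, a fold of 2.50 and a log2 fold change of 1.32 (SE 0.15). Without the 3 libraries named above the log2 fold change was 1.29 (SE 0.15). *Fmo5* was called higher, the 1 gene called of the 4, beside 5.12% of all genes. Since the genes were selected on such values, nothing is read from that count.

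**Figure D1:**
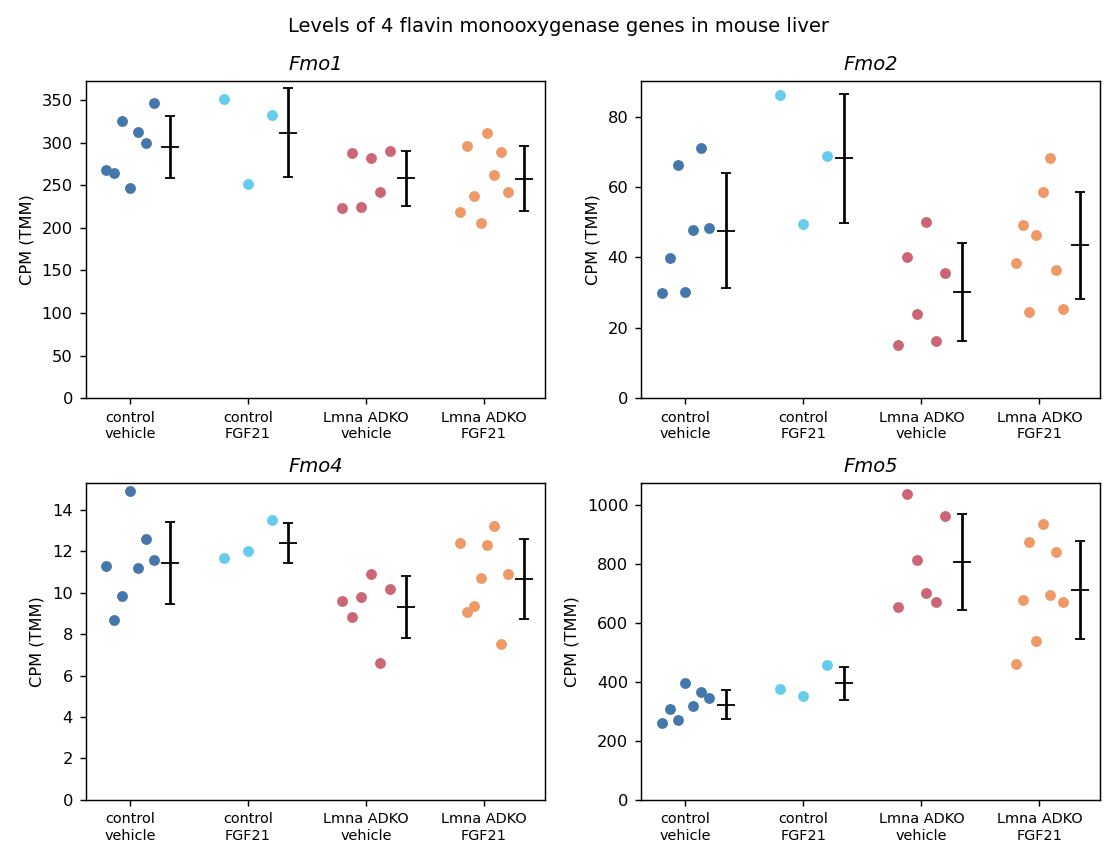
Levels of *Fmo1*, *Fmo2*, *Fmo4* and *Fmo5* (CPM with TMM scaling, linear axes from 0) in each of the 24 libraries, as points by group, with the mean and SD of each group in black. In vehicle-treated mice *Fmo5* lay at 260 to 396 CPM in controls and at 653 to 1035.7 CPM in Lmna ADKO livers, whereas the points of the other genes overlapped between these groups.

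With FGF21, *Fmo5* was again higher in Lmna ADKO liver. The 3 FGF21-treated controls had 376, 351 and 458 CPM, and the 8 FGF21-treated Lmna ADKO mice ran from 461 CPM through a median of 685 CPM to 936 CPM. All 8 lay above the 3 controls, but the lowest of the 8 nearly touched the highest control. Here too, the share of all genes that separate in this way was not computed. The highest control, replicate 3, is a library whose counts fell with gene length. The means were 395 ± 56.3 (SD, n = 3) and 711 ± 165 (SD, n = 8) CPM, a fold of 1.80 and a log2 fold change of 0.85 (SE 0.20). *Fmo5* was the 1 gene called of the 4, beside 1.61% of all genes called higher. The call did not hold in a fit of the 2 groups alone, with a log2 fold change of 0.84, nor without control FGF21 replicate 2, with 0.77. Without the 3 libraries that stand apart it was called, at 0.94 (SE 0.22).

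Between treatments the means of *Fmo5* lay closer together than between genotypes. In controls the mean was 323 CPM with vehicle and 395 CPM with FGF21, a log2 difference of 0.29 (SE 0.19) that was 0.13 (SE 0.21) without the 3 libraries. In Lmna ADKO mice the mean was 806 CPM with vehicle and 711 CPM with FGF21, a log2 difference of -0.18 (SE 0.15), and 2 of the 8 FGF21-treated mice lay below all vehicle-treated ones. The interaction of genotype and treatment was -0.47 (SE 0.24) on the log2 scale and was not called. With the number of digits of the animal number as a covariate, these *Fmo5* values shrank to 0.06 in controls, -0.09 in Lmna ADKO mice and -0.15 for the interaction, and the Lmna ADKO difference was -0.10 without Lmna ADKO vehicle replicate 2. None of the 4 genes was called in any of these 3 comparisons.

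*Fmo1* had a slightly lower mean in Lmna ADKO liver, within overlapping groups. The vehicle-treated controls ran from 247 CPM through a median of 300 CPM to 347 CPM, and the vehicle-treated Lmna ADKO mice from 223 CPM through 262 CPM to 290 CPM. The ranges overlapped, with all 6 Lmna ADKO libraries below the control median and 3 of them below every control. The log2 fold change was -0.19 (SE 0.12), and -0.35 to -0.16 under the alternative fits described at the end. With FGF21 the controls had 351, 252 and 333 CPM and the Lmna ADKO mice ran from 206 CPM through 252 CPM to 312 CPM. All 8 were below the control median, but only 4 lay below all controls, and the log2 fold change was -0.28 (SE 0.14). The means of the Lmna ADKO groups were 258 ± 32.2 (SD, n = 6) CPM with vehicle and 258 ± 38.0 (SD, n = 8) CPM with FGF21. *Fmo1* was not called in any comparison, and FGF21 against vehicle gave 0.08 (SE 0.15) on the log2 scale in controls and -0.00 (SE 0.11) in Lmna ADKO mice, with signs that turned under some of the alternatives.

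*Fmo2* was the most variable of the 4, with a coefficient of variation of 27.0% to 46.6% within groups, against 12.3% to 16.9% for *Fmo1*. Vehicle-treated controls ran from 29.9 CPM through a median of 47.7 CPM to 71.2 CPM, and vehicle-treated Lmna ADKO mice from 15.0 CPM through 29.7 CPM to 50.2 CPM. The groups overlapped, since 3 of 6 Lmna ADKO libraries lay below all controls and 1 lay above the control median. The log2 fold change was -0.66 (SE 0.30), larger in size than that of *Fmo1* and not called. Under the alternative fits it ran from -0.95 to -0.55. The FGF21-treated controls had 86.2, 49.4 and 68.9 CPM and the FGF21-treated Lmna ADKO mice ran from 24.5 CPM through 42.4 CPM to 68.3 CPM, of which 6 of 8 lay below all 3 controls. This log2 fold change was -0.65 (SE 0.35). FGF21 against vehicle gave log2 differences of 0.52 (SE 0.36) in controls and 0.53 (SE 0.29) in Lmna ADKO mice. Groups overlapped in both, and neither difference was called. Under the alternative fits described at the end, the control value ran from 0.19 to 0.61 and the Lmna ADKO value from 0.50 to 0.67.

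*Fmo4* had 128 to 323 counts per library. It ran from 8.67 CPM through a median of 11.3 CPM to 14.9 CPM in vehicle-treated controls and from 6.62 CPM through 9.68 CPM to 10.9 CPM in vehicle-treated Lmna ADKO mice. All 6 Lmna ADKO libraries were below the control median and 1 was below every control. The log2 fold change was -0.30 (SE 0.13). The FGF21-treated controls were close together, at 11.7, 12 and 13.5 CPM, and lay inside the 7.52 to 13.2 CPM of the FGF21-treated Lmna ADKO mice except for the highest. This log2 fold change was -0.21 (SE 0.16), and -0.09 (SE 0.17) without the 3 libraries that stand apart. FGF21 against vehicle gave 0.11 (SE 0.16) in controls and 0.20 (SE 0.13) in Lmna ADKO mice, and *Fmo4* was not called in any comparison.

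**Figure D2:**
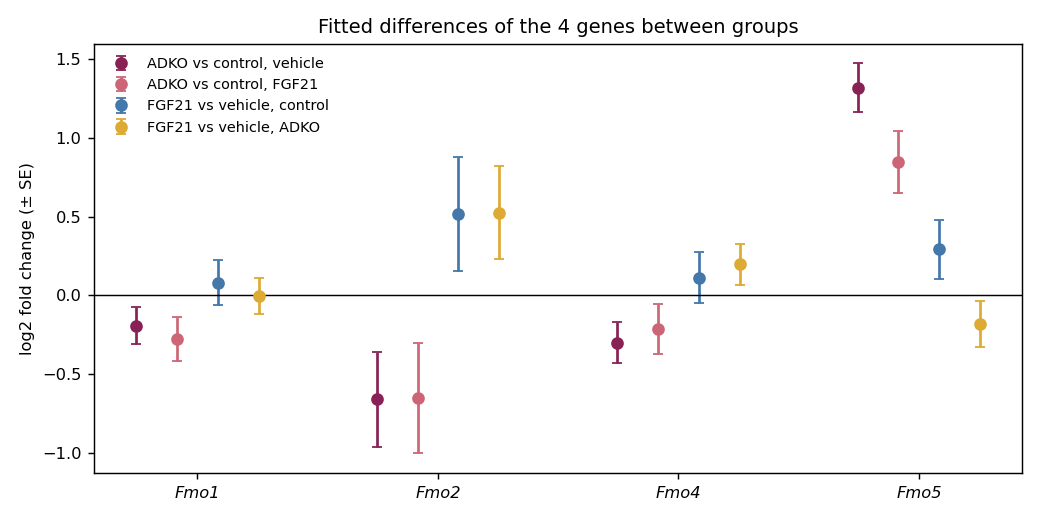
Fitted log2 fold changes of the 4 genes with their SE, for Lmna ADKO against control with vehicle and with FGF21 and for FGF21 against vehicle in each genotype, from 1 edgeR fit of all 24 libraries. *Fmo5* stands above 0 in both comparisons of genotype, at 1.32 and 0.85, whereas *Fmo1*, *Fmo2* and *Fmo4* lie between -0.66 and -0.19 there.

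*Fmo5* had a higher mean and the other genes lower means in Lmna ADKO liver, and the make-up of the 4 transcripts differed between genotypes. Levels of different genes were compared only per kilobase (kb), and the result depended on the length used. With the union of all annotated exons (6304 bases for *Fmo1*, 5609 for *Fmo2*, 3707 for *Fmo4* and 5675 for *Fmo5*), vehicle-treated controls had 56.9 ± 8.67 CPM per kb of *Fmo5*, 46.8 ± 5.75 of *Fmo1*, 8.49 ± 2.90 of *Fmo2* and 3.09 ± 0.53 of *Fmo4* (SD, n = 7). The ranges of *Fmo5* and *Fmo1* overlapped there, at 45.9 to 69.7 and 39.3 to 55.1 CPM per kb, whereas the ranges of *Fmo2* and *Fmo4* overlapped neither each other nor those of the other genes. With the longest transcript (3106 bases for *Fmo1* and 5197 for *Fmo5*), the order of the first pair turned, at 95 ± 11.7 for *Fmo1* and 62.1 ± 9.47 for *Fmo5* in CPM per kb. In vehicle-treated Lmna ADKO mice *Fmo5* was above *Fmo1* by either length, at 142 ± 28.4 against 41.0 ± 5.11 CPM per kb of exon and at 155 ± 31.1 against 83.2 ± 10.4 CPM per kb of the longest transcript (SD, n = 6).

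The ratio of *Fmo5* to *Fmo1* does not depend on depth within a library. Per kb of exon it averaged 1.23 ± 0.28 (SD, n = 7) in vehicle-treated controls, 1.42 ± 0.20 (SD, n = 3) in FGF21-treated controls, 3.46 ± 0.52 (SD, n = 6) in vehicle-treated Lmna ADKO mice and 3.05 ± 0.53 (SD, n = 8) in FGF21-treated Lmna ADKO mice. The highest control ratio was 1.78 and the lowest Lmna ADKO ratio was 2.34, so the genotypes did not overlap in this ratio. Since the genes were selected on such values, nothing is read from this separation. Of the summed level of these 4 genes, and not of the whole family, *Fmo5* made up 49.3% in vehicle-treated controls and 74.2% in vehicle-treated Lmna ADKO mice per kb of exon, or 35.9% and 62.0% per kb of the longest transcript. The share of *Fmo1* was 40.7% and 21.7% per kb of exon in the same groups.

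**Figure D3:**
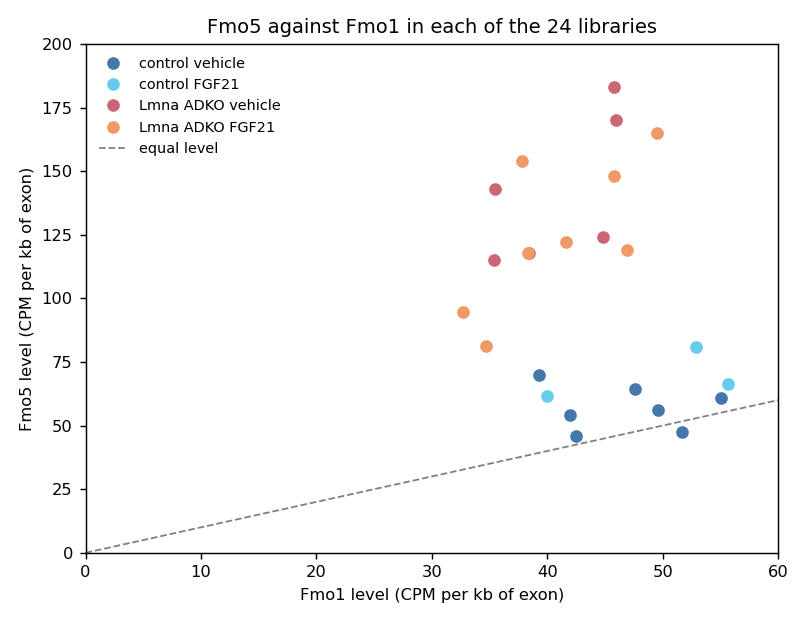
Level of *Fmo5* against that of *Fmo1* (both in CPM per kb of the union of exons) in each of the 24 libraries, coloured by group, with a dashed line of equal levels. The Lmna ADKO libraries have *Fmo5* to *Fmo1* ratios of 2.34 to 4.07 and the control libraries 0.92 to 1.78. Along the *Fmo1* axis the genotypes overlap in part, at 32.7 to 49.5 in Lmna ADKO and 39.3 to 55.7 in control libraries.

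The animal numbers on the labels have 3 or 4 digits, and these series are uneven between groups. Within the 4-digit series *Fmo5* ran from 670 to 936 CPM in 4 FGF21-treated Lmna ADKO mice and from 351 to 458 CPM in the 3 FGF21-treated controls, a log2 fold change of 0.98 (SE 0.20). With vehicle only 1 control had 4 digits, with 344 CPM of *Fmo5* against 669 to 1035.7 CPM in 5 Lmna ADKO mice, and 1 Lmna ADKO mouse had 3 digits, with 653 CPM against 260 to 396 CPM in 6 controls. In each of these comparisons the Lmna ADKO values of *Fmo5* were the higher ones, but with vehicle each rests on 1 mouse of 1 genotype. With FGF21 no control had 3 digits. Genotype and number series are therefore hard to tell apart, as are treatment and series in controls. All 3 FGF21-treated controls had 4 digits, as did 1 vehicle-treated control. The series entered only as a covariate or by using 1 series alone, and its own part in these levels was not tested. With the number of digits as a covariate, the log2 fold change of *Fmo5* with vehicle was 1.13.

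Liver is a mixture of cells, and in bulk tissue fewer cells of a type and less RNA per cell cannot be told apart. Hepatocyte markers, 6 of 6 detected, summed to between 65946.8 and 139019.3 CPM in all libraries. Of these 6 markers, 2 were called lower in vehicle-treated Lmna ADKO livers. The 7 stellate cell and fibroblast markers summed to 184 to 279 CPM in vehicle-treated controls and 265 to 409 CPM in vehicle-treated Lmna ADKO mice. These ranges overlapped in part. Of the 7 markers, 3 were called higher with vehicle and 0 with FGF21. The summed level of 5 cholangiocyte markers was 27.0 to 51.2 CPM and 85.8 to 196 CPM in the same groups. Of the 5, 1 was called higher with vehicle and 0 with FGF21. The summed level of 6 endothelial markers overlapped, at 200.0 to 253 CPM and 188 to 242 CPM in these groups, while 2 of 6, *Lyve1* and *Vwf*, were called higher with vehicle and 1, *Lyve1*, with FGF21. None of these markers was at 0 throughout a group, and their part in the levels of the FMO genes was not tested. Adipocyte markers summed to at most 3.61 CPM in any library. Summed macrophage markers overlapped between vehicle-treated controls, at 353 to 500 CPM, and Lmna ADKO mice, at 221 to 427 CPM, with 0 of 5 called.

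Around the FMO genes, cofactor supply and other oxidising enzymes were read from lists of genes (the plot of listed genes). These lists and those of the next paragraphs were chosen with earlier results of these data known. Their counts of called genes and adjusted p-values therefore describe these libraries and are not independent tests. Of 11 genes of FAD and NADPH supply, 3 were called higher and 0 lower in vehicle-treated Lmna ADKO mice, with a median log2 fold change of 0.11 beside 0.00 for all genes. *Pgd*, which makes NADPH in the pentose phosphate pathway, rose from 47.8 ± 7.99 (n = 7) to 95.5 ± 15.7 (n = 6) CPM (edgeR adjusted p = 2.58e-05). *Me1*, the cytosolic malic enzyme, rose from 150 ± 36.1 to 277 ± 51.0 CPM (edgeR adjusted p = 0.00116). *Nnt*, the gene of the mitochondrial transhydrogenase, rose from 28.5 ± 10.5 to 47.6 ± 6.66 CPM (edgeR adjusted p = 0.0441). These are transcript levels, and whether working enzyme was made from *Nnt* in these mice was not tested. The call of *Nnt* was lost without any 1 of 9 libraries, namely control vehicle replicates 1, 2, 3, 4 and 7 and Lmna ADKO vehicle replicates 1, 3, 5 and 6, at log2 fold changes of 0.61 to 0.75. *Rfk*, which makes FMN from riboflavin, had a log2 fold change of 0.08 and was not called. *Flad1*, which makes FAD from FMN, fell from 47.2 ± 1.72 to 37.8 ± 2.57 CPM, with all 6 Lmna ADKO libraries below every control. Its log2 fold change of -0.32 (SE 0.10, edgeR adjusted p = 0.0252) was under the fold threshold, so it was not called. In the other direction, *Idh1* of the same list was also under that threshold, at 0.42 (SE 0.10, edgeR adjusted p = 0.00357). With FGF21, *Pgd* alone of the 11 was called, at a log2 fold change of 1.0 (SE 0.19, edgeR adjusted p = 0.00264), and 0 were called without the 3 libraries that stand apart.

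Of 16 other enzymes that oxidise xenobiotics, 3 were called higher and 2 lower in vehicle-treated Lmna ADKO mice, with a median of -0.07. *Aox1*, an aldehyde oxidase, had a log2 fold change of 1.24 (SE 0.14, edgeR adjusted p = 4.46e-07), close to that of *Fmo5*. *Ephx1*, the microsomal epoxide hydrolase, had 0.98 (SE 0.18, edgeR adjusted p = 0.000307), and *Cyb5r3*, the cytochrome b5 reductase, 0.61 (SE 0.11, edgeR adjusted p = 0.000397). *Cyb5r3* was under the fold threshold without control vehicle replicate 1, 2 or 7 or Lmna ADKO vehicle replicate 3, at 0.56 to 0.59. The pericentral P450 genes *Cyp1a2* and *Cyp2e1* fell by 1.44 (SE 0.19, edgeR adjusted p = 7.67e-06) and 0.88 (SE 0.19, edgeR adjusted p = 0.0018) on the log2 scale. *Por*, the reductase that feeds P450 enzymes, had -0.49 and was not called. With FGF21, 2 were called higher and 2 lower, which became 2 in all without the 3 libraries that stand apart.

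Of 16 liver transcription factors and nuclear receptors, 0 were called higher and 5 lower in vehicle-treated Lmna ADKO mice, with a median of -0.18. Among them, *Nr1i3*, the xenobiotic receptor CAR, fell by 1.0 on the log2 scale (SE 0.21, edgeR adjusted p = 0.00157), and *Cux2*, a repressor of male-biased genes in female liver, fell by 4.58 (SE 0.75, edgeR adjusted p = 0.000261). *Nr1i2* (PXR), *Ahr*, *Nfe2l2* (NRF2), *Ppara* and *Nr3c1*, other receptors and factors that act on genes of drug metabolism, had log2 fold changes of 0.155, 0.22, 0.23, 0.44 and -0.08 and were not called. With FGF21, *Nr1i3* was the 1 gene of the 16 called, at -1.30 (SE 0.24, edgeR adjusted p = 0.00233), and 0 were called without the 3 libraries that stand apart.

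Genes with a known difference between male and female liver were listed since all mice were female and FMO1 in mouse liver is known to differ between the sexes. Like the other lists, these were chosen with earlier results of these data known, so their calls are a description. Of 11 female-biased genes, 10 were called lower in vehicle-treated Lmna ADKO mice and 0 higher, with a median log2 fold change of -1.55, and 8 were called without the 3 libraries that stand apart. *Prlr*, the prolactin receptor, fell by 1.55 (SE 0.18, edgeR adjusted p = 7.29e-07), and *Slc22a26*, an organic anion transporter, fell by 4.0 (SE 0.60, edgeR adjusted p = 0.000102). Of 11 male-biased genes, 4 were called higher and 1 lower, with a median of -0.21. *Cyp2d9* rose from 41.2 ± 12.2 (n = 7) to 246 ± 67.4 (n = 6) CPM (edgeR adjusted p = 1.4e-06) and *Elovl3*, a fatty acid elongase, from 3.77 ± 3.33 to 15.9 ± 12.1 CPM (edgeR adjusted p = 0.0063). The call of *Elovl3* was lost with the digits of the animal number as a covariate, at a log2 fold change of 1.68 (edgeR adjusted p = 0.0513). *Cyp2d9*, like others of these lists, has close copies in the genome among which reads may have been split. With FGF21, 5 of the female-biased genes were called lower and 2 of the male-biased genes higher, which became 5 and 1 called without the 3 libraries that stand apart. FGF21 against vehicle called 0 genes of the 5 lists described here in either genotype.

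**Figure D4:**
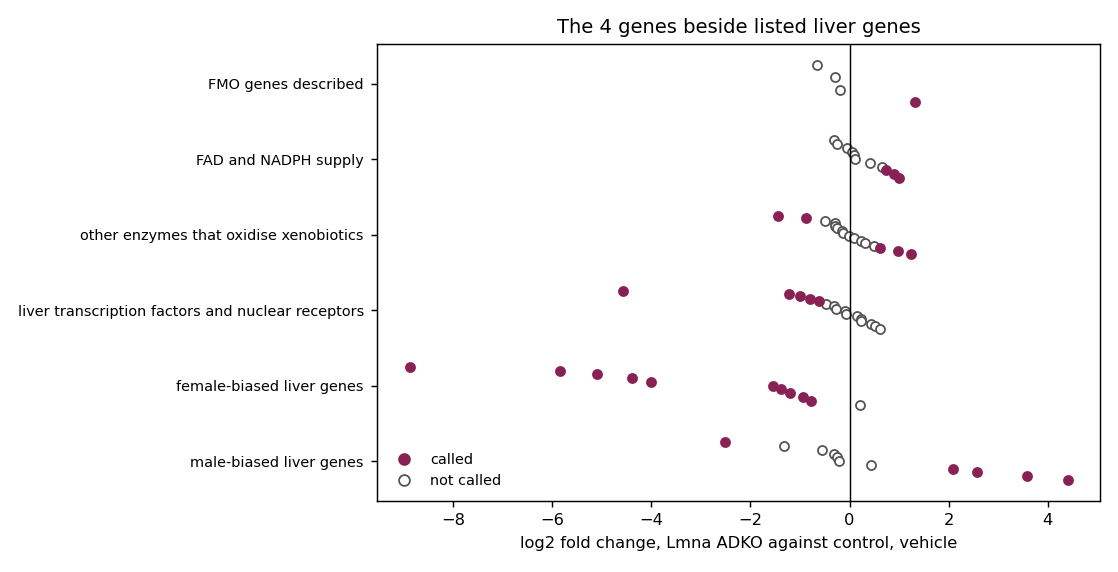
Log2 fold changes of Lmna ADKO against control mice, both with vehicle, for the 4 FMO genes and for listed genes, 1 point per gene, filled where the gene was called. *Fmo5* is the filled point at 1.32 in the top row, and the female-biased genes lie mostly to the left of 0, with 10 of 11 called lower.

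How the 4 genes varied from mouse to mouse within groups was described by correlating deviations of log2 CPM from the group means over the 24 libraries. Such points share library depth and RNA quality, and no test was made. *Fmo1* and *Fmo2* varied together the most (r = 0.634, and 0.655 over the 21 libraries without those that stand apart), followed by *Fmo1* and *Fmo5* (r = 0.495 and 0.515). *Fmo2* and *Fmo5* had r = 0.181, and *Fmo4* had r between -0.0907 and 0.285 with the other genes.

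Among the 9919 genes averaging at least 2 on the log2 CPM scale, those whose deviations were most like *Fmo1* were *Cyp2a12* (r = 0.829), *Hibch* (r = 0.794) and *Slc46a3* (r = 0.79). For *Fmo2* they were *Cpsf4l* (r = 0.859), *Por* (r = 0.853) and *Nampt* (r = 0.851). *Por* encodes P450 reductase, and *Nampt* the enzyme that limits NAD synthesis from nicotinamide. For *Fmo5* they were *Gna11*, a G protein subunit (r = 0.817), *Aifm2*, a flavoprotein also known as FSP1 (r = 0.778), and *Alpl*, an alkaline phosphatase (r = 0.761). For *Fmo4* the values were lower, with *H2-Q4* at r = 0.752, *Txndc16* at 0.742 and *Tmco4* at 0.7. Over the 21 libraries the first of the 3 kept rank 1 for *Fmo2* (r = 0.897) and *Fmo5* (r = 0.811) and had rank 4 for *Fmo1* (r = 0.825) and *Fmo4* (r = 0.723).

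*Fmo6*, another gene of the cluster on chromosome 1, had 3 counts in all over the 24 libraries and at most 1 in any of them, which is at the floor of 3 counts, so no level or difference was read.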

How the data were processed

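Livers of 24 mice were profiled by polyA-selected, strand-specific RNA-Seq. The authors deposited 1 table of raw counts per gene (Ensembl 102, GRCm38), with genes at 0 in all samples removed. The submitters' notes name cutadapt 4.8, FastQC 0.11.8, STAR 2.7.8a and RSEM 1.3.3 without their roles, so the whole numbers may be rounded estimates. Groups came from the labels. The members and gene lists were chosen with earlier results of these data known.

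Counts were scaled by TMM and fitted over all 23972 genes and 24 libraries with edgeR 4.0.16 in R 4.3.3 (glmQLFit with robust fitting, glmQLFTest), without covariates or a filter. SE are the absolute log2 fold change over the square root of F. The code of the fit was checked on simulated counts with the same spread for every gene, unlike these libraries. Log2 CPM use a prior count of 2. Symbols and lengths came from GENCODE M21 for 23900 genes. From each list, up to 3 called genes with the smallest p with vehicle and up to 2 more with FGF21 could be named. *Por*, *Rfk*, *Flad1*, *Idh1* and the receptors not called were named after their values were seen. Alternatives were DESeq2 1.42.0, its size factors, filterByExpr, no fold threshold, only the groups compared, covariates for animal number digits and length slope, and leaving out libraries. The labels name a DNA nanoball platform and the methods a NovaSeq. P-values set a group difference against the spread between these animals, which the fit estimates partly across genes. They do not measure that spread. Counting error aside, depth gave at least 128 counts of each member per library. Some other genes of the family and of the lists are not reported here.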

Additional observations from a re-analysis of the deposited data

How the results depend on the processing

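As a description of genes selected on these values, *Fmo5* passed the call thresholds in vehicle-treated Lmna ADKO mice under every alternative run, with log2 fold changes of 1.13 to 1.33, and of 1.24 to 1.38 without each library in turn, and 1 of the 4 genes was called throughout. With FGF21 its range was 0.83 to 0.98, and 0.77 to 0.97 without each library in turn. The number of the 4 genes called there was 0 with only the groups compared and between 0 and 1 without each library in turn, lost without control FGF21 replicate 2; the cause was not tested. Near 0, signs turned. The *Fmo2* interaction, 0.01, was -0.00649 with DESeq2, -0.00703 with its size factors and -0.0528 without the 3 libraries that stand apart. Over all alternatives other than single libraries left out it ran from -0.0528 to 0.478, and without each library in turn from -0.18 to 0.21. For *Fmo1*, the digits covariate gave -0.113 for FGF21 against vehicle in controls, 0.0739 in Lmna ADKO mice and 0.187 for the interaction, and the 4-digit series alone, an alternative chosen after seeing the data as were those on listed genes, gave 0.0521 in Lmna ADKO mice. Without each library in turn these ran from -0.0116 to 0.214, from -0.0461 to 0.0382 and from -0.216 to 0.00918. For *Ephx1* with FGF21 the range was -0.0148 to 0.337. Of 452 comparisons of a log2 fold change of the 4 genes with its alternative, 26 turned sign, 2 lost the call and 0 gained one. With vehicle, called genes of the transcription factor list numbered 2 to 7 and of the male-biased list 2 to 6, against 5 in each, and with FGF21 the female-biased list gave 2 to 7 against 5. In all, edgeR called 690 genes and DESeq2 1006 for genotype with FGF21. For FGF21 against vehicle edgeR called 13 genes in controls and 0 in Lmna ADKO mice, where DESeq2 called 38 and 15, and the interaction gave 1 and 11. No paired analysis was possible because the groups share no animal numbers. With 3 FGF21-treated controls, small differences could not be resolved, and the level of a gene per kb depends on the length used, with 95, 11.7 and 4.27 CPM per kb of the longest transcript for *Fmo1*, *Fmo2* and *Fmo4* in vehicle-treated controls.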
